A study of Mus musculus with 20 samples.

Results

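Transcripts of 9 genes of melanin synthesis and the melanosome were followed in mouse retinal pigment epithelium (RPE) and choroid: *Tyr*, *Tyrp1*, *Dct*, *Pmel*, *Mlana*, *Oca2*, *Slc45a2*, *Slc24a5* and *Gpr143*. They were chosen by their symbols for their known roles, with earlier results of these data known. All 9 were found among the 24411 genes of the deposited table and passed the filter on low values. Bulk RNA-seq had been run on 20 samples of C57BL/6 mice, each described as both posterior eyecups of 1 mouse after the neural retina had been peeled off. After weaning, mice were kept for 12 weeks on a vitamin A sufficient diet (VAS, 4 IU/g) or a diet without vitamin A (VAD, 0 IU/g). The 4 groups of 5 samples were wild type (WT) mice on either diet and mice lacking *Stra6* (Stra6-/-), which encodes the receptor that takes up retinol from its blood carrier, on either diet.

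Melanin is made inside melanosomes, organelles that the RPE forms before birth and that melanocytes of the choroid form as well. Amyloid fibrils of PMEL give the organelle its scaffold, tyrosinase and its relatives turn tyrosine into melanin on that scaffold, and ion transporters set the pH and calcium that the enzymes need. In the RPE the pigment absorbs stray light, and loss of several of these genes causes albinism.

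The *Tyr*, *Tyrp1* and *Dct* promoters are known targets of MITF, the pigment cell transcription factor, through the M-box, whose core letters are TCATGTG. RefSeq promoter windows (GRCm38.p6) covering 250 bases before the start were found for 5 of the 9 genes, and the stretches with a match are printed 5′ to 3′ on the strand of the gene because they show what these 5 genes have in common. Capitals mark TCATGTG or its reverse complement CACATGA, and for *Oca2* the shorter CACATG, the reverse complement of CATGTG.
Tyr: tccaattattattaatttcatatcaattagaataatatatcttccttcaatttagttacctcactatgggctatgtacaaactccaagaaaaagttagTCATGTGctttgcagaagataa
Tyrp1: agtggggagggagTCATGTGctgcctagta
Dct: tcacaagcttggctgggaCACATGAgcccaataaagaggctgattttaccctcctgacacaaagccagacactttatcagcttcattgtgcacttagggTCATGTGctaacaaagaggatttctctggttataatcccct
Slc24a5: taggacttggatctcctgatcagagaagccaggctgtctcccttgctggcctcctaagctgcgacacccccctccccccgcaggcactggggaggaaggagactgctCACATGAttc
Oca2: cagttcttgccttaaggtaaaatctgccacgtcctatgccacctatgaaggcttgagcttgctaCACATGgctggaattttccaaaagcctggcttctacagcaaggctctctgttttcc

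The stretches lie at chr7:87493513-87493632 on the minus strand for *Tyr*, chr4:80834153-80834182 on the plus strand for *Tyrp1* and chr14:118052357-118052496 on the minus strand for *Dct*. Those of *Slc24a5* at chr2:125068007-125068123 and *Oca2* at chr7:56239509-56239628 are on the plus strand. The first base of the match was 22 bases before the start of *Tyr*, 47 before that of *Tyrp1* and 13 before that of *Slc24a5*. *Dct* held 2 matches, at 232 and 151 bases before its start, and *Oca2* held the shorter letters at 186. TCATGTG on either strand was in 4 of the 5 windows and in 3.25% of all 32851 promoter windows. CATGTG, which TCATGTG contains, was in 5 of 5 against 12.3% of all windows. CACGTG was in 0 of 5 against 6.02% of all windows, and TAATCC, letters bound by OTX factors, was in 1 of 5, at 119 bases before the start of *Dct*, against 6.25%. A match describes the sequence and does not show that a factor bound there. No window was at hand for *Pmel*, *Mlana*, *Slc45a2* and *Gpr143*.

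The libraries held 13331903 to 21878614 reads. Values are given as deposited, as gene counts divided by 1 size factor per library, and are called normalized values. *Stra6* itself was at 2414 to 2742 in the VAS WT libraries and at 564 to 694 in the VAS Stra6-/- libraries, but at 1973 to 2393 in the 5 libraries labelled VAD Stra6-/-. The last values were close to those of VAS WT on the deposited scale. In these 5 libraries transcripts of other RPE genes also took a larger share of the summed values, and whether this bears on *Stra6* was not tested. Relative to 10 other RPE genes, *Stra6* was lower by 2.04 on the log2 scale in VAS Stra6-/- than in VAS WT (adjusted p = 2.1e-11, limma), as the genotype labels have it. On the VAD diet it was lower by 1.84 in the libraries labelled Stra6-/- than in WT (adjusted p = 1.3e-13, limma). In that comparison 96.9% of all genes were called lower on this scale, so the value does not test the genotype label of these 5 libraries. The same 5 libraries held both *Xist* (3569.8 to 4279.6) and the Y-linked *Ddx3y* (741 to 969.7), whereas the VAS WT libraries were low in *Xist* (7.69 to 38.4) and the VAS Stra6-/- libraries nearly without *Ddx3y* (0 to 1.02), so that sex and genotype cannot be told apart on the VAS diet. For that mixture of sex-linked transcripts the 5 are called by their label throughout. *Ddx3y* thus also differed between the diets in Stra6-/-, so sex and diet cannot be told apart there either. In VAD WT, replicates 2 and 4 stood apart from replicates 1, 3 and 5 in *Xist* (10912 and 11767 against 174 to 234) and *Stra6* (1340.1 and 1529 against 669 to 697). Comparisons of the 9 genes with VAD WT are given with and without replicates 2 and 4, and list counts without them are given where they differ by over 1.5 times or lose a call. The labelled tissue was checked against its markers: *Rpe65*, the retinoid isomerase of the RPE, was present in every library (1107 to 45414), whereas the RPE chloride channel gene *Best1* was close to absent in each (7.09 to 44.6).

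*Tyr* (chr7:87424771-87493512, minus strand, 5 exons, GRCm38) encodes tyrosinase, the rate-limiting enzyme that oxidises tyrosine. On the VAS diet its normalized values were 732, 727, 908, 861 and 965 in WT and 1269.7, 1331, 1215, 1349 and 1269 in Stra6-/-. On the VAD diet they were 321, 821, 362, 1012 and 283 in WT and 4811, 4796, 4616, 4879.6 and 4493 in the libraries labelled VAD Stra6-/-. The libraries labelled VAD Stra6-/- were the highest 5 of the 20, the VAS Stra6-/- libraries were the next 5, and the VAD WT group was split between 2 libraries within or just above the VAS WT range and 3 below it.

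*Tyrp1* (chr4:80834123-80851719, plus strand, 8 exons) encodes a tyrosinase-related protein that stabilises tyrosinase and acts late in eumelanin synthesis. Its normalized values were 10429, 9938, 10620.4, 10691 and 11041 in VAS WT and 17215, 17318, 16617, 16894 and 16721 in VAS Stra6-/-. They were 4539, 12869, 4559, 12068 and 4696 in VAD WT and 38025, 39378, 39002, 38933 and 36747 in the libraries labelled VAD Stra6-/-. The order of the groups was that of *Tyr*, and VAD WT replicates 2 and 4 lay above every VAS WT library.

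*Dct* (chr14:118012790-118052244, minus strand, 8 exons), the gene of dopachrome tautomerase, had normalized values of 20896, 22238, 21481, 20992 and 21981 in VAS WT and 29261, 30437, 29567, 30306 and 30622 in VAS Stra6-/-. In VAD WT it was at 9846, 23821, 10599, 23345 and 11190.0, and in the libraries labelled VAD Stra6-/- at 76239.9, 76433, 78376, 77505 and 83850.0. The spread within the VAS groups was small, with a coefficient of variation of 2.75% in VAS WT and 1.97% in VAS Stra6-/-, against 45.4% in VAD WT. An antisense gene, 4930435M08Rik, overlaps *Dct* outside the exons of its principal transcript.

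*Pmel* (chr10:128704195-128720238, plus strand, 11 exons) encodes the fibril protein of the melanosome. Its normalized values were 17726, 19336, 18499, 18894 and 19167 in VAS WT and 24462, 24172, 22930.4, 25611 and 25067 in VAS Stra6-/-. They were 9213, 19154, 9904, 19477 and 9815 in VAD WT and 53345, 50903, 54715, 52681 and 58393 in the libraries labelled VAD Stra6-/-. An exon of *Pmel* overlaps *Dgka* on the opposite strand, and since no source states that the counting used strand, reads of both genes cannot be told apart there.

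*Mlana* (chr19:29697824-29708634, plus strand, 5 exons), whose product melan-A helps PMEL to mature, was at 2891, 2549, 2837, 2799.9 and 3111 in VAS WT and at 3139, 3177, 3280.1, 3159 and 3314 in VAS Stra6-/-. In VAD WT it was at 1511, 2901, 1544, 2539 and 1704, and in the libraries labelled VAD Stra6-/- at 5546, 5215, 5582, 5165 and 5761. The VAS groups touched closely without overlap, the highest WT library being at 3111 and the lowest Stra6-/- library at 3139.

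*Oca2* (chr7:56239760-56536518, plus strand, 24 exons) encodes the chloride transporter that raises melanosomal pH. Its normalized values were 461, 584, 656, 497 and 646 in VAS WT and 985, 1086, 949, 915 and 912 in VAS Stra6-/-. They were 356, 516, 302, 514 and 261 in VAD WT and 2470.4, 2693, 2740.1, 2665 and 2615 in the libraries labelled VAD Stra6-/-. The lowest VAS Stra6-/- library (912) was well above the highest VAS WT library (656), and the antisense gene Gm44506 overlaps *Oca2* outside the exons of its principal transcript.

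*Slc45a2* (chr15:11000721-11029233, plus strand, 7 exons), a sugar and proton transporter of the melanosome membrane, was at 1099, 1083, 1134, 1114 and 1209.5 in VAS WT and at 1706, 1728, 1427, 1834 and 1737 in VAS Stra6-/-. In VAD WT it was at 620.1, 1186, 610.1, 1229.9 and 529, and in the libraries labelled VAD Stra6-/- at 3634, 3582, 3740.2, 3515 and 3842. Replicate 3 was the lowest of the VAS Stra6-/- libraries for this gene and still above every VAS WT library.

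*Slc24a5* (chr2:125068124-125088677, plus strand, 9 exons) encodes a potassium-dependent sodium/calcium exchanger of the pigment cell. Its normalized values were 1917, 2271, 2165, 2019 and 2282 in VAS WT and 2265, 2567, 2579, 2480.5 and 2649 in VAS Stra6-/-, which overlapped. They were 1073, 2063, 959, 2183 and 1046 in VAD WT and 7812, 8068, 8106, 8022 and 8469.6 in the libraries labelled VAD Stra6-/-. An exon overlaps *Myef2* on the opposite strand, with the same limit as for *Pmel*.

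*Gpr143* (chrX:152781921-152808646, plus strand, 9 exons) encodes the ocular albinism receptor, a G protein-coupled receptor of the melanosome membrane that limits melanosome size. Its normalized values were 408, 299, 342, 335 and 317 in VAS WT and 398, 433, 413, 520.2 and 449.7 in VAS Stra6-/-. They were 100.2, 248, 170.3, 217 and 126 in VAD WT and 1120.4, 1059.9, 1258, 1057 and 1244 in the libraries labelled VAD Stra6-/-. The VAS groups overlapped, and *Gpr143* was the only one of the 9 for which all 5 VAD WT libraries were below all 5 VAS WT libraries.

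**Figure D1:**
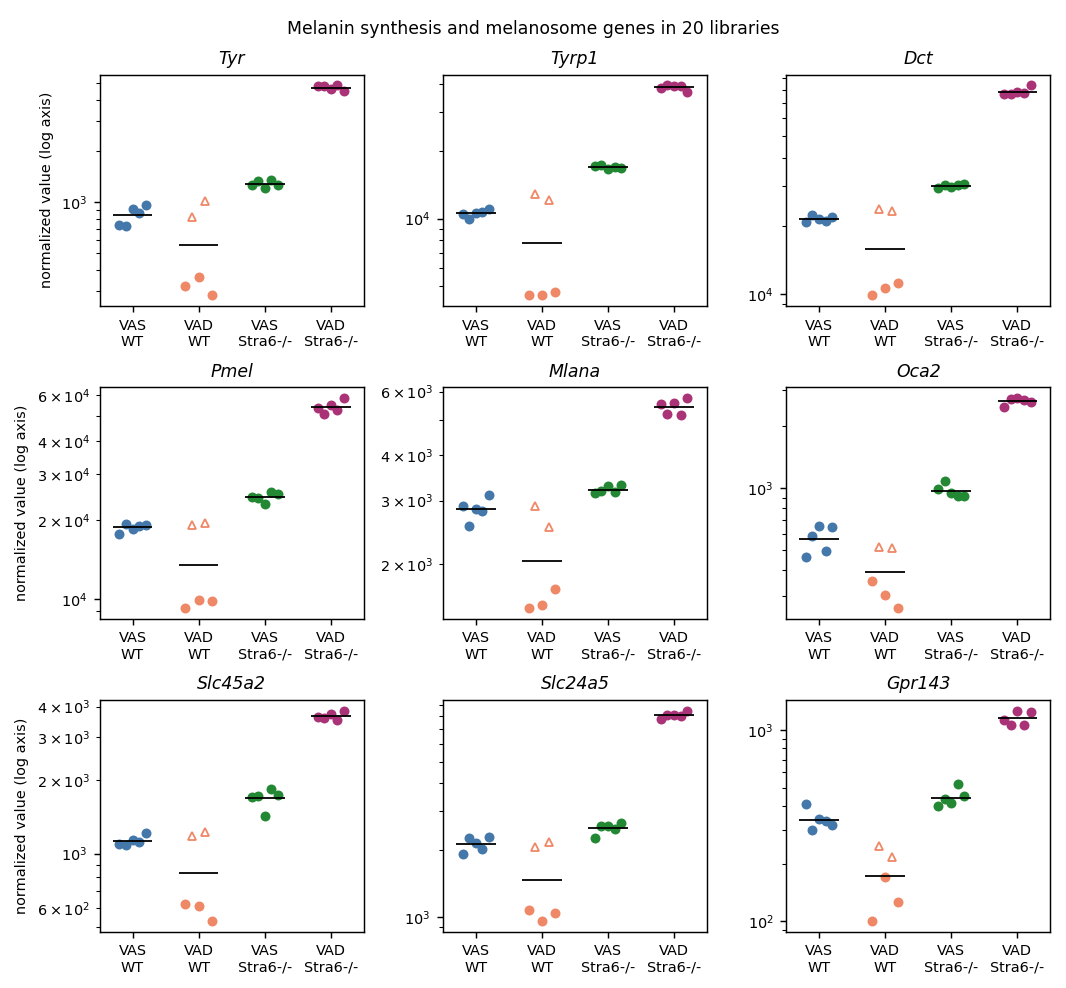
Normalized value of each of the 9 genes (vertical log axis) in the 20 libraries by group, with 1 point per library and a black line at the group mean; open triangles are VAD WT replicates 2 and 4. For every gene the 5 libraries labelled VAD Stra6-/- lie above the other 15, and in VAD WT the open triangles lie near or within the VAS WT range, except for *Gpr143*, where they lie below it.

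Per kilobase of the principal transcript, which allows levels of different genes to be compared, *Dct* was the highest of the 9 in each group and *Tyr* or *Gpr143* the lowest. In VAS WT the mean normalized value per kilobase was 9772 ± 268 (SD, n = 5) for *Dct*, 8791 ± 301 for *Pmel*, 3876 ± 149 for *Tyrp1* and 3132 ± 222 for *Mlana*. *Slc24a5* followed with 1091 ± 81.5 and *Slc45a2* with 378 ± 16.6. *Gpr143* (215 ± 26.3), *Oca2* (182 ± 27.9) and *Tyr* (139 ± 17.6) closed the order, and the libraries of *Gpr143* and *Oca2*, and of *Oca2* and *Tyr*, overlapped. The transcript of the rate-limiting enzyme was thus the least abundant of the tyrosinase family. In the libraries labelled VAD Stra6-/- the first 6 genes kept this order without overlap, and *Oca2* (842 ± 33.0 per kilobase), *Tyr* (781 ± 26.4) and *Gpr143* (724 ± 61.5) overlapped with their neighbours. In VAD WT, where replicates 2 and 4 stood apart, the order of the first 6 was the same, but *Dct*, *Pmel* and *Tyrp1* each overlapped with the next.

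The effect of genotype on the VAS diet was tested first, with limma on log2(normalized value + 1) over all 18807 genes tested, and a gene was called at a Benjamini-Hochberg adjusted p under 0.05. *Oca2*, *Tyrp1* and *Slc45a2* rose in VAS Stra6-/- relative to VAS WT, and the other 6 did not pass the test. The 3 of 9 called higher stand beside 15.9% of all genes tested. *Oca2* was 1.72-fold higher (log2 fold change 0.78, SE 0.15, adjusted p = 5.2e-04), *Tyrp1* 1.61-fold (0.69, SE 0.23, adjusted p = 0.03, lost in 9 of 20 fits that left out 1 library) and *Slc45a2* 1.49-fold (0.58, SE 0.17, adjusted p = 0.017). *Tyr* had a log2 fold change of 0.62 (adjusted p = 0.064) and *Dct* of 0.48 (adjusted p = 0.073). The smallest differences were those of *Mlana* (0.18, 95% interval -0.10 to 0.46) and *Slc24a5* (0.24, -0.12 to 0.59). The median log2 fold change of the 9 was 0.48, against 0.02 over all genes tested. In 7 of the 9, all but *Slc24a5* and *Gpr143*, the groups did not overlap, with VAS Stra6-/- higher, as they did not for 19.3% of all genes tested. The fit shared 1 estimate of spread with the VAD WT libraries: without VAD WT replicates 2 and 4 all 9 were called higher (22.5% of all genes), with the same fold changes, and limma on the VAS libraries alone also called 9 (24.1% of all genes).

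The effect of the VAD diet in WT mice came next. *Gpr143*, *Mlana*, *Oca2*, *Slc24a5* and *Pmel* fell in VAD WT relative to VAS WT, 5 of 9 against 5.5% of all genes called lower, and no gene of the 9 rose. These calls were uneven: when each of the 20 libraries was left out in turn, *Gpr143* and *Mlana* stayed called, but *Pmel* (adjusted p = 0.045) was lost in 18 fits, *Slc24a5* in 6 and *Oca2* in 4. *Gpr143* had a normalized value of 340.2 ± 41.6 in VAS WT and 172 ± 61.4 in VAD WT (mean ± SD, n = 5), a log2 fold change of -1.05 (SE 0.18, adjusted p = 4.7e-04, limma). For the other 8 the log2 fold change lay between -0.77 for *Tyr* (adjusted p = 0.053) and -0.53 for *Mlana* (adjusted p = 0.015), and *Tyrp1*, *Dct* and *Slc45a2* also missed the threshold. The median over the 9 was -0.58, against 0.00 over all genes tested. Only *Gpr143* had groups that did not overlap, as 4.21% of all genes did with VAD WT lower.

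These values averaged over a divided group. In VAD WT replicates 1, 3 and 5 the log2 of the mean value of each gene was below that of VAS WT, by 0.84 for *Mlana* to 1.38 for *Tyr*. In replicates 2 and 4 it differed from VAS WT by -0.14 for *Oca2* to 0.24 for *Tyrp1*, and by -0.55 for *Gpr143*. These distances compare the log2 of mean values, whereas limma compares means of log2 values. The distance between the replicate sets was widest for *Tyr* (1.51 on the log2 scale) and narrowest for *Oca2* (0.75). Without replicates 2 and 4 all 9 genes fell, with log2 fold changes from -0.84 for *Mlana* to -1.38 for *Tyr* and *Gpr143*, beside 20.3% of all genes called lower. With limma on the VAS WT and VAD WT libraries alone, *Gpr143* was the 1 gene called, beside 2.33% of all genes.

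In the libraries labelled VAD Stra6-/- all 9 genes rose relative to VAS Stra6-/-, against 24.4% of all genes tested called higher. *Tyr* showed the largest difference, with a normalized value of 4719 ± 159 (SD, n = 5) against 1287 ± 53.7, or 3.67-fold (log2 fold change 1.87, SE 0.24, adjusted p = 1.2e-06, limma). *Slc24a5* was 3.23-fold higher (log2 1.69) and *Oca2* 2.72-fold (1.44). *Dct*, *Gpr143*, *Tyrp1*, *Pmel* and *Slc45a2* lay between 2.61-fold and 2.18-fold. *Mlana* showed the smallest difference, 1.70-fold (log2 0.76, SE 0.13, adjusted p = 5.0e-05). The groups did not overlap for any of the 9, as they did not for 24.5% of all genes with the libraries labelled VAD Stra6-/- higher, and the median log2 fold change was 1.37 against -0.07 over all genes.

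Relative to VAD WT the differences were larger, and all 9 genes were again called higher in the libraries labelled VAD Stra6-/-, against 26.2% of all genes. *Tyr* was 9.67-fold higher (log2 3.27, SE 0.24, adjusted p = 2.6e-10, limma), *Oca2* differed by 2.81 on the log2 scale and *Gpr143* by 2.80. *Slc24a5* (2.56), *Tyrp1* (2.49), *Dct* (2.43), *Slc45a2* (2.23) and *Pmel* (2.08) followed on the log2 scale, and *Mlana* was again the smallest, at 2.77-fold (1.47, SE 0.13, adjusted p = 5.5e-09). The groups did not overlap for any of the 9 (18.3% of all genes with the same direction). At the stricter call of a log2 fold change beyond 2, 8 of the 9 passed, all but *Mlana*, against 3.52% of all genes higher. Without VAD WT replicates 2 and 4 the log2 fold changes were 1.78 for *Mlana* to 3.88 for *Tyr*.

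The diet effect in the Stra6-/- libraries minus that in WT was above 0 for all 9 (called higher, against 19.5% of all genes), with log2 values from 1.29 for *Mlana* (SE 0.19, adjusted p = 8.5e-06, limma) to 2.65 for *Tyr* (SE 0.35, adjusted p = 2.0e-06). Without VAD WT replicates 2 and 4 the values were 1.60 for *Mlana* to 3.25 for *Tyr*. This contrast shares its libraries with the comparisons above. Sex-linked transcripts also differed between its groups, so it cannot be told apart from a difference in sex.

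**Figure D2:**
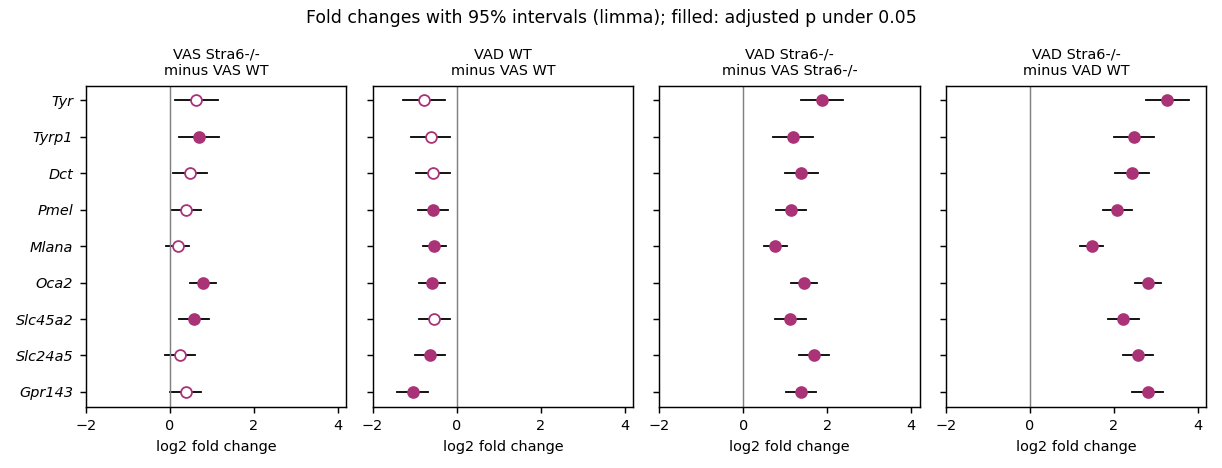
Log2 fold change (horizontal axis) of each of the 9 genes in the 4 comparisons, with 95% intervals from limma on 20 libraries; filled points passed an adjusted p of 0.05. *Tyr* lies farthest to the right and *Mlana* nearest to 0 in both comparisons of the libraries labelled VAD Stra6-/-.

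Transcripts of other RPE genes also took their largest share in the libraries labelled VAD Stra6-/-. In VAS Stra6-/- their share was not above the VAS WT range, whereas that of the pigment genes was. Summed over the 9 genes, pigment transcripts took 0.336% to 0.364% of the summed values in VAS WT, 0.146% to 0.396% in VAD WT, 0.431% to 0.451% in VAS Stra6-/- and 1.08% to 1.11% in the libraries labelled VAD Stra6-/-. A list of 10 other RPE genes without the retinoid cycle took 0.379% to 0.451%, 0.103% to 0.198%, 0.369% to 0.390% and 1.39% to 1.52% in the same order, and 6 retinoid cycle genes took 0.314% to 0.368%, 0.0817% to 0.192%, 0.299% to 0.307% and 1.70% to 1.76%. Transcripts of 11 surface epithelium genes, among them the corneal keratin gene *Krt12*, had their lowest share in the libraries labelled VAD Stra6-/-. They took 3.90% to 4.61%, 2.69% to 6.48% and 5.19% to 5.37% in VAS WT, VAD WT and VAS Stra6-/-, but 0.185% to 0.234% in those libraries. Between the VAS groups their share was higher in Stra6-/-, as was that of the pigment genes. From bulk RNA, fewer RPE cells and less pigment RNA per RPE cell cannot be told apart.

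**Figure D3:**
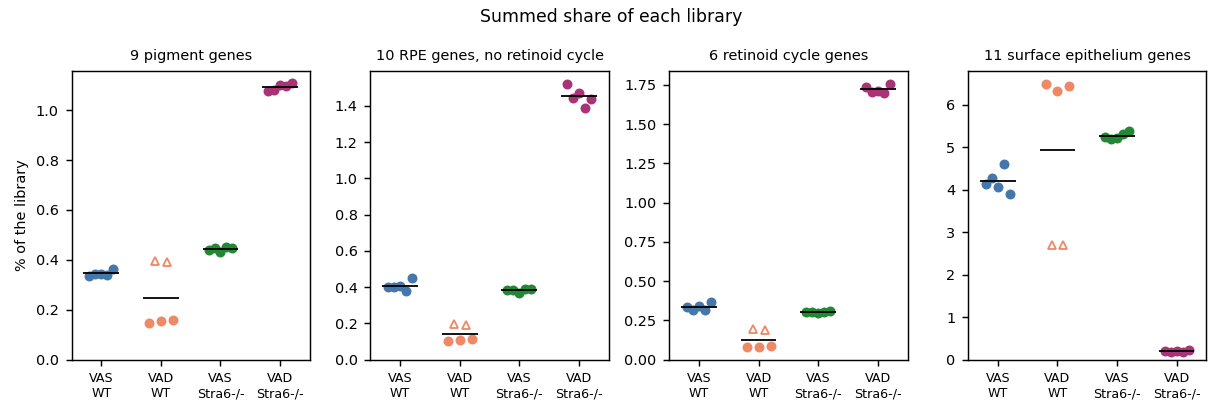
Share of the summed normalized values of each library (vertical axis, percent) taken by the 9 pigment genes, 10 RPE genes outside the retinoid cycle, 6 retinoid cycle genes and 11 surface epithelium genes, with 1 point per library, a line at the group mean and open triangles for VAD WT replicates 2 and 4. The first 3 shares are highest and the last is lowest in the libraries labelled VAD Stra6-/-, and the open triangles reach the VAS WT level for the pigment genes but not for either RPE list.

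Each library was therefore also rescaled so that the mean log2 value of the 10 RPE genes was constant, which gives the pigment genes relative to other RPE transcripts. The direction of most differences turned. Relative to VAD WT, 7 of the 9 genes were then lower in the libraries labelled VAD Stra6-/-, from -0.26 for *Oca2* to -1.60 for *Mlana* on the log2 scale, whereas *Tyr* (0.20, adjusted p = 0.21) and *Gpr143* (-0.27, adjusted p = 0.089) did not pass the test. On this scale 96.9% of all genes were called lower and the median of all genes was -3.12, against -0.58 for the median of the 9 genes. Relative to VAS Stra6-/-, 8 of the 9 were lower (92.7% of all genes), from -0.32 for *Slc24a5* to -1.25 for *Mlana*, whereas *Tyr* (-0.14, adjusted p = 0.39) was not called, and the median of the 9 was -0.64 against -2.08 for all genes. In VAD WT relative to VAS WT, 7 genes were higher by 0.43 for *Slc24a5* to 0.53 for *Slc45a2* (75.7% of all genes called higher, median of all genes 1.06), and *Tyr* (0.28) and *Gpr143* (0.011) did not pass. *Tyr* was split on this scale too: it was higher than in VAS WT by 0.70 in VAD WT replicates 2 and 4 and by 0.0029 in replicates 1, 3 and 5. The libraries labelled VAD Stra6-/- differed in *Tyr* from the first set by -0.22 and from the second by 0.48, whereas the other 8 genes were lower than in either set, by -0.23 to -1.58 and by -0.25 to -1.61. Only the comparison of the VAS groups kept its values, from 0.18 for *Mlana* to 0.78 for *Oca2*, with 5 genes called: *Oca2*, *Slc45a2*, *Tyrp1*, *Tyr* and *Dct* (9.86% of all genes called higher). The higher pigment transcripts of VAS Stra6-/- were therefore also higher relative to these 10 RPE genes, whose summed share overlapped between the VAS groups. The summed share of the retinoid cycle genes did not overlap and was lower in VAS Stra6-/-.

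**Figure D4:**
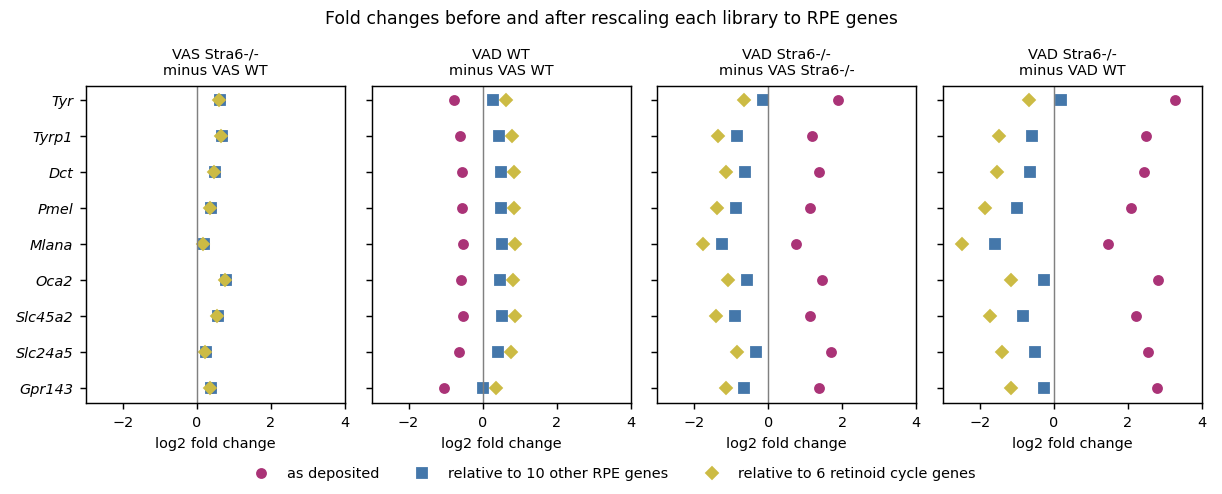
Log2 fold change (horizontal axis) of each gene in the 4 comparisons on the deposited values (circles) and after rescaling each library to 10 RPE genes (squares) or 6 retinoid cycle genes (diamonds). The 3 symbols coincide for the VAS groups and fall on opposite sides of 0 for most genes in the other comparisons.

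The 9 genes did not change by the same factor. Of the 36 ratios between pairs of them, tested for each of the 4 comparisons with exact two-sided permutation tests on log2 ratios (144 tests, Benjamini-Hochberg adjusted, smallest possible p = 0.00794), 19 differed between the VAS groups and 3 between the WT groups. For the libraries labelled VAD Stra6-/-, 28 ratios differed from those in VAS Stra6-/- and 23 from those in VAD WT. The 36 ratios share 9 genes and are not independent. Ratios among other genes were not tested, so the counts do not set these 9 apart from other genes. These ratios do not depend on how a library was scaled. Without VAD WT replicates 2 and 4, 8 of the 36 ratios did not overlap between the WT groups, against 0 with them, and 24, against 20 with them, did not overlap between the VAD groups. Taking libraries out of a group can only remove overlap, so these higher counts are not read as a result. *Tyr* gained on *Mlana* most: the log2 ratio of *Tyr* to *Mlana* was -1.76 ± 0.14 (SD, n = 5) in VAS WT, -2.01 ± 0.47 in VAD WT, -1.32 ± 0.09 in VAS Stra6-/- and -0.21 ± 0.11 in the libraries labelled VAD Stra6-/-. Within VAD WT the ratio was -1.82 to -1.33 in replicates 2 and 4 and -2.59 to -2.09 in replicates 1, 3 and 5. The difference was 1.11 from VAS Stra6-/- (exact permutation p = 0.00794, adjusted p = 0.0190) and 1.80 from VAD WT (the same p values). *Pmel* and *Slc45a2* kept nearly the same ratio in both Stra6-/- groups, with a log2 difference of 0.02 (exact permutation p = 0.667). Within the tyrosinase family, *Tyr* gained 0.69 on *Tyrp1* and 0.49 on *Dct* over VAS Stra6-/- in the log2 ratio, without overlap. In VAS Stra6-/- relative to VAS WT, *Oca2* gained 0.60 on *Mlana* and 0.54 on *Slc24a5*, also without overlap (exact permutation p = 0.00794 for each, adjusted p = 0.0190).

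Over the 20 libraries, with each gene centred on its own mean log2 level, *Dct* was the member nearest to the mean profile of the 9. Its root mean square difference was 0.0635 on the log2 scale. *Mlana* (0.395) and *Tyr* (0.342) were the farthest, on either side of the mean. Among 12171 genes outside all lists with a mean normalized value of at least 100, the profiles nearest to that mean were those of *Lgals3bp*, a secreted glycoprotein gene (0.128), *Slc4a4*, a sodium bicarbonate cotransporter gene (0.175), *Atp1b1*, a subunit of the sodium pump (0.180), *Psap*, the precursor of the saposins (0.186), and *Fads2*, a fatty acid desaturase gene (0.189).

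The regulators of the 9 genes moved in part with them. *Mitf*, which encodes the factor that binds the M-box, was called in 3 of the 4 comparisons, with log2 fold changes of -0.86 in VAD WT against VAS WT, 0.94 in the libraries labelled VAD Stra6-/- against VAS Stra6-/- and 1.76 against VAD WT (adjusted p = 0.019, 0.0014 and 9.8e-07, limma). Its fall in VAD WT was carried by replicates 1, 3 and 5, which lay 1.43 below VAS WT, while replicates 2 and 4 differed from VAS WT by -0.0021, and without the latter its difference from the libraries labelled VAD Stra6-/- was 2.34. Between the VAS groups its log2 fold change was -0.04 (95% interval -0.51 to 0.43), where *Oca2*, *Tyrp1* and *Slc45a2* rose. *Otx2*, a homeobox factor that acts with MITF in the RPE, fell in VAS Stra6-/- (-0.66) and in VAD WT (-0.66) and rose by 1.58 in both comparisons of the libraries labelled VAD Stra6-/-. After rescaling to the 10 RPE genes, of which *Otx2* is 1, the sign for *Mitf* also turned, with -1.07 relative to VAS Stra6-/- and -1.30 relative to VAD WT.

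The wider pathway was counted on lists of pigment cell genes. Over all genes tested, 24.4% were called higher and 28.8% lower relative to VAS Stra6-/-, 26.2% and 29.6% relative to VAD WT, 15.9% and 10.8% between the VAS groups, and 3.29% and 5.5% between the WT groups. With VAD WT replicates 2 and 4 left out, 22.5% were called higher between the VAS groups and 20.3% lower between the WT groups. Shares beside the other counts without these replicates are not given, and those counts are not read as results. Of 12 pigment cell transcription factor genes, 4 rose and 3 fell in the libraries labelled VAD Stra6-/- relative to VAS Stra6-/-, with a median log2 fold change of 0.35, and 6 rose and 2 fell relative to VAD WT (0.58). Those that fell in the second comparison, *Pax6* (-1.73) and *Tfap2a* (-2.53), are also active in surface epithelium and were picked out after their values were seen. Between the VAS groups 1 rose and 2 fell (2 and 4 without VAD WT replicates 2 and 4), and in VAD WT 0 rose and 3 fell (3 and 5 without them).

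Of 13 genes for melanosome cargo and ion transport, 7 rose and 2 fell relative to VAS Stra6-/- (median 0.93) and 9 rose and 1 fell relative to VAD WT (2.09). They include *Gpnmb*, a paralogue of *Pmel* (2.85 relative to VAD WT), *Cd63*, a tetraspanin that sorts PMEL (2.09), and *Tspan10*, another tetraspanin (2.17), each with an adjusted p of at most 5.8e-11 in limma, and *Trpm1*, a cation channel gene (1.01 relative to VAS Stra6-/-, adjusted p = 5.4e-09). In VAD WT 6 fell, among them *Tspan10* by 1.08 on the log2 scale, and between the VAS groups 1 rose and 0 fell. Leaving out VAD WT replicates 2 and 4, 1 rose and 11 fell in VAD WT, and 4 rose and 2 fell between the VAS groups.

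The 22 genes of melanosome biogenesis, which encode the AP-3, BLOC and HOPS complexes used in many cell types, moved less. In the libraries labelled VAD Stra6-/- 10 rose and 4 fell relative to VAS Stra6-/- (median 0.38), and 8 rose and 3 fell relative to VAD WT (0.24). *Bloc1s1*, a BLOC-1 subunit gene, had log2 fold changes of 0.81 and 0.39 and *Hps3*, a BLOC-2 subunit gene, of 0.79 and 0.52. In VAD WT none of the 22 was called, and between the VAS groups 2 rose and 4 fell, with *Hps3* at -0.57. Without VAD WT replicates 2 and 4, 8 rose and 1 fell in VAD WT, 4 rose and 5 fell between the VAS groups, and *Bloc1s1* was no longer called against VAD WT (0.17, adjusted p = 0.065).

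Of 8 melanosome transport genes 5 rose and 2 fell in both comparisons of the libraries labelled VAD Stra6-/-, 0 rose and 2 fell in VAD WT, and 1 rose and 1 fell between the VAS groups. When VAD WT replicates 2 and 4 were left out, 1 rose and 5 fell in VAD WT and 3 rose and 1 fell between the VAS groups. *Rab27a*, the GTPase that tethers melanosomes to the motor, rose by 1.23 relative to VAS Stra6-/- and 2.16 relative to VAD WT, and *Sytl2*, which encodes a RAB27A effector, by 1.24 and 1.58. *Mreg*, the melanoregulin gene, went the other way (-2.08 and -1.94), as did *Exph5*, another RAB27 effector gene picked out after its values were seen (-5.29 and -4.95).

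**Figure D5:**
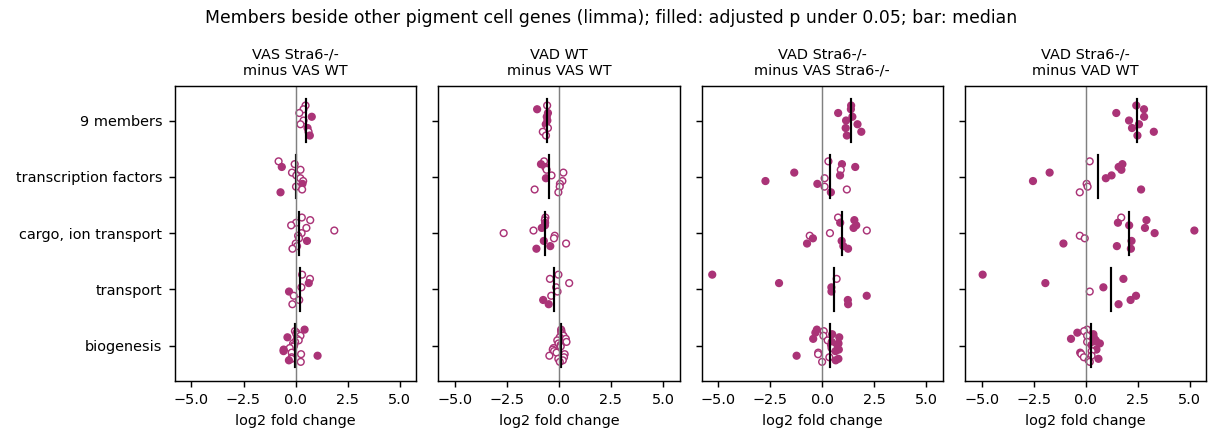
Log2 fold change (horizontal axis) of the 9 genes and of 4 lists of pigment cell genes in the 4 comparisons, with 1 point per gene, filled at an adjusted p under 0.05 in limma, and a bar at the median of each list. In the comparisons of the libraries labelled VAD Stra6-/- the 9 genes form a compact group above 0, while each of the 4 lists holds members on both sides.

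The 9 genes are shared by the RPE and choroidal melanocytes. Of 5 melanocyte markers, none of which was at 0 in any library, the summed normalized value was 4268 to 4407 in VAS WT, 3032 to 4737 in VAD WT, 4855 to 5126 in VAS Stra6-/- and 7549 to 7860.1 in the libraries labelled VAD Stra6-/-. *Sox10*, a neural crest factor that the RPE lacks, rose by 0.85 relative to VAS Stra6-/- and 1.24 relative to VAD WT, less than every member but *Mlana* in the first comparison and less than all 9 in the second. *Ednrb*, an endothelin receptor gene (1.14 and 2.10), also rose, whereas *Kit*, the receptor gene for a growth factor of melanocytes, fell (-1.70 and -1.58). *Mc1r*, the melanocortin receptor gene, was not called (0.23 in each), and the factor gene *Pax3* had 0.89 (not called) and 1.72 (called). These 5 were given as the whole marker list, and *Ednrb*, *Mc1r* and *Pax3* were outside the rule for named genes. The parts of the RPE and of melanocytes in the values of the 9 genes were not tested. Among 6 tested genes of melanocyte receptors and ligands, 3 rose and 1 fell relative to VAS Stra6-/-, 3 rose and 2 fell relative to VAD WT, and none was called in VAD WT or between the VAS groups. Without VAD WT replicates 2 and 4, 1 rose and 3 fell in VAD WT and 3 rose between the VAS groups. *Asip* has no entry in the table.

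Markers of other tissues in the eyecup also differed in the libraries labelled VAD Stra6-/- relative to VAD WT. All 11 surface epithelium markers fell (median -4.81), as did 7 of 8 rod markers (-0.97). Of 7 lens markers 1 rose and 2 fell, and of 7 Schwann cell markers 3 rose and 3 fell. Skeletal muscle (5 of 6), sclera and stroma (5 of 6), macrophage (5 of 6) and endothelium markers (3 of 6) rose in the same comparison, as did 9 of 10 RPE genes outside the retinoid cycle (median 3.39) and all 6 retinoid cycle genes (3.73). Relative to VAS Stra6-/-, by contrast, 3 of 6 muscle markers fell and none rose. The tissue lists were also split within VAD WT: the summed normalized value of the endothelium markers was 13784 to 14235 in replicates 2 and 4 and 4540.0 to 4749 in replicates 1, 3 and 5, on either side of the 11742 to 12311 of the libraries labelled VAD Stra6-/-. Without replicates 2 and 4, 6 of 6 endothelium markers rose and 5 of 7 lens markers fell relative to VAD WT. In VAD WT, 8 of the 10 RPE genes and all 6 retinoid cycle genes fell. Between the VAS groups 2 of the 10 and 2 of the 6 fell and none rose, and 5 of 6 muscle markers and 5 of 11 surface epithelium markers rose. Lens markers showed the largest median shift of any list between the VAS groups (-2.49, 5 of 7 fell), their summed value being 6144 to 7518 in VAS WT and 1169.7 to 1333 in VAS Stra6-/-. With VAD WT replicates 2 and 4 left out, 10 of 11 surface epithelium markers rose between the VAS groups and 9 of 11 in VAD WT. The part of these tissues in the values of the 9 genes was not tested.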

How the data were processed

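RNA-seq of 20 RPE–choroid samples (4 groups of 5) was analysed. Per their processing notes, the authors used STAR 2.5.3a for alignment, RSEM 1.2.30 for gene quantification and DESeq2 1.32.0 for normalization. The deposited signal equals read counts after division by a size factor of each library, with no length or log scaling. In 19 libraries 100% of the values were whole multiples of 1 read (tolerance 0.01). For replicate 1 labelled VAD Stra6-/- recovery was not claimed, and the tests on reads leave it out.

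From these values limma 3.58.1 (R 4.3.3) was fitted to log2(value + 1) with 4 group means and an intensity trend, over 18807 genes with at least 5 reads in total, with Benjamini-Hochberg adjustment and calls at an adjusted p under 0.05. The added 1 shrinks fold changes of low genes. With 13331903 to 21878614 reads per library (median 17785927), counting error was small for the 9 genes. The study describes each library as both eyecups of 1 mouse. Since some libraries held transcripts of both sexes, that each is 1 animal cannot be stated from the values, and p-values measure the spread between libraries. No pair of libraries agreed within counting noise (chi-square per gene 3.39 to 202).

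Alternatives were edgeR 4.0.16 and DESeq2 1.42.0 on recovered reads, rescaling by TMM factors or RPE genes, pseudocounts of 0.5 and 4, filters, the libraries fitted, a replicate block and leaving out each library. The members, the 17 gene lists and the alternatives were chosen with earlier results of these data known. Named beside the 9 genes were listed genes called in at least 3 of 4 comparisons (at most 4 per list, by mean value), 7 set genes (*Mitf*, *Otx2*, *Sox10*, *Kit*, *Rpe65*, *Krt12*, *Stra6*) and the 5 genes nearest in profile. Positions come from GENCODE vM21 on GRCm38 and promoter windows from RefSeq. A comparison of protein sequences was planned and is not given. Values of VAD WT replicates 1, 3 and 5 and of 2 and 4 were also set apart after seeing the data. The fits were tested on simulated data first.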

Additional observations from a re-analysis of the deposited data

Results flagged for a closer look

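*Dct* in replicate 5 of the libraries labelled VAD Stra6-/- had a normalized value of 83850.0, against 78376 in the next of the other 4, a gap that stood out by Dixon's test (0.719 of the range of the group). This was 1 of 36 groups of 5 looked at, and about 1 in 20 groups stands out in this way when nothing differs.

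The diet effect in Stra6-/- differed from that in WT for all 9 genes by the interaction term of the limma fit. The differences on the log2 scale were 2.65 for *Tyr*, 2.42 for *Gpr143*, 2.32 for *Slc24a5*, 2.03 for *Oca2*, 1.95 for *Dct*, 1.80 for *Tyrp1*, 1.70 for *Pmel*, 1.65 for *Slc45a2* and 1.29 for *Mlana*, with adjusted p values from 6.9e-08 to 9.6e-05. All rest on the 5 libraries labelled VAD Stra6-/-, whose sex-linked transcripts differed from those of VAS Stra6-/-. Diet and sex cannot be told apart in these differences.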

How the results depend on the processing

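The calls in the libraries labelled VAD Stra6-/- kept their direction and number (9 of 9 in both comparisons and in the interaction) under edgeR, DESeq2, TMM rescaling, both pseudocounts, both filters, the replicate block and leaving out any 1 library. Requiring a log2 fold change beyond 2 left 0 against VAS Stra6-/-, 0 between the VAS groups and 0 between the WT groups. In the interaction it left 4, beside 3.13% of all genes called higher. For the VAS groups, with 3 called, the count was 1 at an adjusted p under 0.01, 5 with DESeq2, 5 with either RPE rescaling, 9 with these groups alone, 9 without VAD WT replicates 2 and 4, and 2 to 6 when 1 library was left out (6 without VAD WT replicate 2 or 4). *Tyrp1* was lost in 9 of these 20 fits, each without 1 VAS library. It was also lost with no filter. For the WT groups, with 5 called, it was 1 at an adjusted p under 0.01, 3 with edgeR, 3 with no filter, 1 with these groups alone, 9 without VAD WT replicates 2 and 4, and 2 to 9 when 1 library was left out (9 without VAD WT replicate 2 or 4, 3 without VAS WT replicate 2 or VAD WT replicate 1, 2 without VAS WT replicate 3 or 5 or VAD WT replicate 3 or 5, and 4 without any of the other 12). *Pmel* was lost in 18 of the 20, *Slc24a5* in 6 and *Oca2* in 4. Between the VAS groups 15.9% of all genes were called higher, and 11.5% with no filter. Under RPE rescaling it was 9.86% (outside the retinoid cycle) and 8.5% (retinoid cycle). The share was 24.1% with these groups alone and 22.5% without VAD WT replicates 2 and 4. Between the WT groups 5.5% were called lower, 3.84% with no filter, 2.33% with these groups alone and 20.3% without those replicates. No share of all genes is given beside the counts with edgeR, DESeq2, an adjusted p under 0.01 or 1 library left out. Those counts are therefore not read against all genes. With the replicate block 1 call was lost, *Pmel* between the WT groups (adjusted p = 0.054), leaving 4, and no other call changed. The numbers do not pair the samples: deviations of same-numbered libraries correlated by -0.134 to 0.0948, with 0 of 30 pairs over 0.1.

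Signs turned under the RPE rescalings and under no other alternative, in 35 of 45 values relative to 10 RPE genes and 36 relative to 6 retinoid cycle genes; the construction divides by genes that moved more than the pigment genes. Relative to the 10 RPE genes, the log2 fold changes of *Tyr*, *Tyrp1*, *Dct*, *Pmel*, *Mlana*, *Oca2*, *Slc45a2*, *Slc24a5* and *Gpr143*, in this order, were -0.14, -0.83, -0.63, -0.87, -1.25, -0.57, -0.89, -0.32 and -0.64 in the libraries labelled VAD Stra6-/- against VAS Stra6-/-. Against VAD WT those of the last 8 were -0.58, -0.64, -0.99, -1.60, -0.26, -0.84, -0.51 and -0.27. The interaction values of all 9 were -0.42, -1.27, -1.12, -1.37, -1.78, -1.04, -1.42, -0.75 and -0.65. For VAD WT against VAS WT those of all 9 were 0.28, 0.44, 0.49, 0.50, 0.53, 0.47, 0.53, 0.43 and 0.011. Relative to the retinoid cycle genes, the values of the 9 in the same order were -0.65, -1.34, -1.14, -1.38, -1.76, -1.08, -1.40, -0.83 and -1.15 against VAS Stra6-/-, -0.68, -1.47, -1.52, -1.87, -2.48, -1.15, -1.73, -1.39 and -1.15 against VAD WT, and -1.28, -2.13, -1.98, -2.23, -2.64, -1.90, -2.28, -1.60 and -1.51 for the interaction. For VAD WT against VAS WT they were 0.63, 0.78, 0.84, 0.85, 0.88, 0.82, 0.88, 0.77 and 0.36, with 9 called higher. The share of all genes called higher on this scale was 83.8%, and relative to the 10 RPE genes it was 75.7%. Among the single values with 1 library left out, 16 passed the threshold and 37 missed it where the reported fit differed, with none changing sign. The interaction was not run with only the groups compared.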
